A study of Brassica napus with 74 samples.

Results

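The embryo proper (EP) of the heart stage *Brassica napus* seed was compared with the micropylar endosperm (MCE) that encloses its base. Both subregions were taken from seeds of the oilseed cultivar Topas and captured by laser microdissection (LMD), and their RNA was sequenced. The comparison used every library of both subregions, 3 of the heart stage EP (hEP) and 4 of the heart stage MCE (hMCE), which are 7 of the 74 libraries of the series. Libraries were chosen by subregion and stage only, and all genes were compared. Transcript levels are given as TPM, which are the authors' counts scaled by gene length and library total.

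The plants carried no transgene or treatment and were grown in chambers under long days. Flowers were pollinated by hand, and seeds of the heart stage were collected 10 d after pollination and those of the globular stage 7 d after. Seeds were fixed, embedded in paraffin, and sectioned before capture, and each library came from sections pooled from several plants. Libraries of a subregion are therefore separate pools and not single plants, and their spread includes dissection and amplification. The sample label of the hMCE gives the tissue as endosperm, and the micropylar position comes from its title. The authors' minimum RNA integrity number was 3. In such bulk captures, fewer cells of a type cannot be told apart from less RNA per cell.

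The seed holds 2 products of fertilization side by side. The embryo sets up its root and shoot poles, its surface layer, and its vascular strands, and in oilseeds it greens before it fills with oil and protein. The endosperm begins as a syncytium that takes up sugars and amino acids from maternal tissue and feeds the embryo, and its micropylar end is the first to gather nuclei and form walls. At the heart stage both lie against each other and share regulators of seed filling, such as *LEAFY COTYLEDON1* (*LEC1*), a subunit of a transcription factor complex.

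Between 30,649 and 33,577 genes were above 1 TPM in each of the 7 libraries. Libraries of a subregion were more alike than libraries of different subregions. Pearson's r of log2(TPM + 1) across genes was 0.860 to 0.945 within the hEP, 0.873 to 0.963 within the hMCE, and 0.513 to 0.618 between them. The hEP replicate 2 and hMCE replicate 2 were the least like the others of their group. Reads recovered from the steps between low values ran from 310,324 in hEP replicate 2 to 2,147,853 in hMCE replicate 3, over genes that hold 7.67% to 14.9% of the TPM. For a gene of median length, 1 read stood for 0.0570 to 0.379 TPM, so that levels near 1 TPM rest on few reads in the shallow libraries. The 50 most abundant genes held 63.5% to 72.8% of the TPM, and the same 2 genes led both subregions. BnaC09g16500D had 81,802 TPM in the hEP and 116,330 TPM in the hMCE, a log2 change of -0.51 that did not pass (adjusted p = 0.081, limma with Benjamini-Hochberg adjustment). BnaC09g30110D had 51,023 and 71,190 TPM (log2 change of -0.49, adjusted p = 0.12 in the same fit). BnaC09g16500D passed as lower without hMCE replicate 1 (-0.62, adjusted p = 0.044, limma). Neither gene has a name or function in the sources used here.

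Genes were tested where the hEP or the hMCE averaged 1 TPM or more. Of these 40,356 genes, 9,422 (23.3%) were higher and 7,518 (18.6%) were lower in the hEP at an adjusted p under 0.05 (limma on log2(TPM + 1), Benjamini-Hochberg). Together these were 16,940 genes, or 42% of those tested. The median log2 change of all tested genes was 0.12. Embryo calls were the more numerous, but endosperm calls reached further. A log2 change of at least 4 was found for 58 genes higher in the hEP and for 426 higher in the hMCE, and the extremes were 6.07 and -8.60. Likewise 126 genes averaged at least 10 TPM in the hEP and under 0.5 TPM in the hMCE, whereas 464 showed the reverse. Groups did not overlap for 10,625 genes (26.3%) with the hEP above and for 8,168 (20.2%) with the hEP below. Both subgenomes took part. Of 19,170 An genes tested, 4,597 were higher and 3,571 lower, and of 21,054 Cn genes, 4,800 were higher and 3,928 lower.

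**Figure D1:**
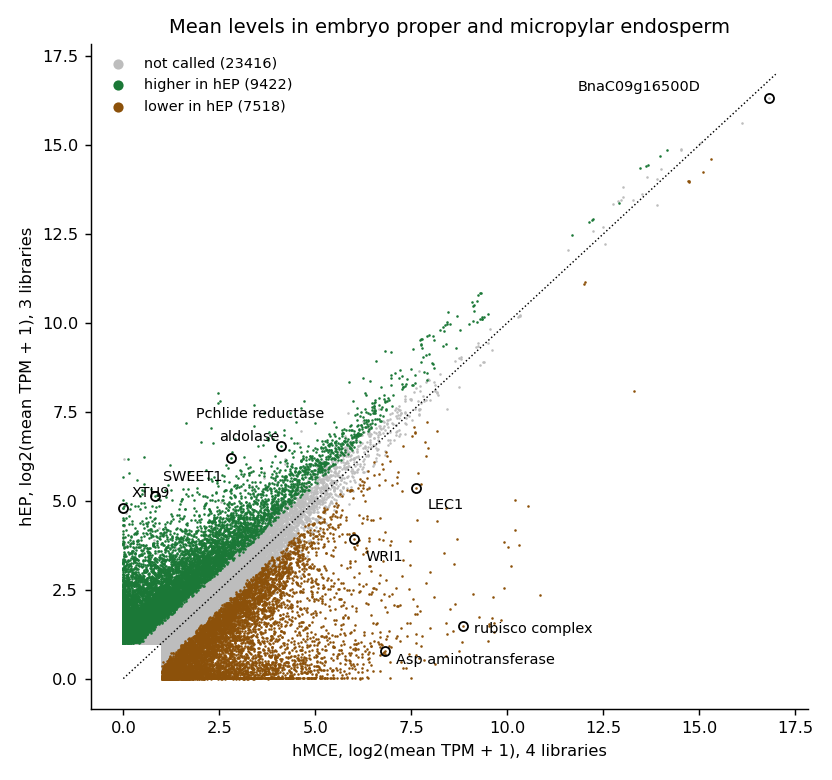
Mean level of each of the 40,356 tested genes in the hMCE (horizontal axis) and the hEP (vertical axis), as log2(mean TPM + 1), with genes coloured by the limma call. The brown points along the bottom are genes with high levels in the endosperm and next to none in the embryo, such as the rubisco complex gene at 459 against 1.80 TPM, while embryo genes that are nearly absent from the endosperm, such as *XTH9*, stay at lower levels.

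Cell wall remodelling genes were among the sharpest embryo differences. *XTH9* encodes a xyloglucan endotransglucosylase/hydrolase, an enzyme that cuts and rejoins wall xyloglucan, and all 4 of its copies were higher in the hEP. BnaC03g73080D stood at 30.4, 22.5, and 27.8 TPM in the hEP libraries and had no recovered read in any of the 4 hMCE libraries. With 3 reads over the hMCE as the floor, it was at least 315-fold higher in the hEP (log2 change 4.79 ± 0.18 SE, adjusted p = 5.3e-07, limma). Its partner BnaA03g25760D was also without reads in the hMCE and at least 214-fold higher in the hEP, at 16.8, 25.9, and 14.8 TPM. The other pair was not silent in the endosperm. BnaA09g01390D ranged from 0.680 to 2.42 TPM in the hMCE against 36.6 to 50.7 TPM in the hEP, and BnaC09g00910D from 0.133 to 0.335 TPM against 21.5 to 33.4 TPM.

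Genes annotated with cell wall loosening, the group that holds the expansins, showed the same direction. Of 16 genes listed, 6 were tested, 4 were higher in the hEP and none was lower. BnaA04g16780D had 16.5, 15.9, and 15.5 TPM in the hEP and at most 0.468 TPM in any hMCE library (log2 change 3.81 ± 0.22 SE). BnaC04g40170D and BnaCnng40260D had no recovered read in the hMCE and were at least 197-fold and 92.7-fold higher in the hEP. The same 3 genes carry the annotation syncytium formation, which accounts for 3 of the 4 higher members of that list. Wall genes did not all lean to the embryo. The polygalacturonase genes, which degrade pectin, were split into 2 higher and 6 lower of 13 tested. BnaC08g49850D, the embryo polygalacturonase with the strongest difference, averaged 11.99 ± 4.74 TPM (SD, n = 3) in the hEP and 0.188 ± 0.293 TPM (SD, n = 4) in the hMCE.

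*SWEET1* encodes a sugar transporter of the plasma membrane, and 2 of its 3 tested copies were higher in the embryo. BnaA06g15180D was at 37.9, 32.6, and 32.7 TPM in the hEP and at 0.806, 1.27, 0.533, and 0.503 TPM in the hMCE, with a log2 change of 4.33 ± 0.20 SE (adjusted p = 1.4e-06, limma). BnaC05g16660D was at 13.3 to 29.1 TPM against 0.746 to 2.65 TPM (log2 change 3.20). The third copy, BnaA08g21340D, was below 2.5 TPM in every library of both subregions and did not pass (log2 change -0.54, adjusted p = 0.32, limma). The inner seed coat of the same stage holds much more *SWEET1* than either, with 671 TPM of BnaA06g15180D on average. The hEP level was 5.12% of that and the hMCE level 0.116%, and the part of maternal RNA in these values was not tested.

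Plastid genes formed the broadest embryo group. Of 21 tested genes for chlorophyll biosynthesis, 15 were higher in the hEP and none was lower, with a median log2 change of 1.34 beside 0.12 for all genes. Both copies of protochlorophyllide reductase, the light-dependent step of chlorophyll synthesis, were in this group. BnaA01g16440D was at 98.8, 87.1, and 89.1 TPM in the hEP and at 14.6 to 18.9 TPM in the hMCE (log2 change 2.44 ± 0.16 SE), and BnaC01g19630D at 63.1 to 71.4 TPM against 14.0 to 18.9 TPM (2.01 ± 0.16 SE). The libraries of the 2 subregions were far apart and those within each close together. The heart stage outer seed coat averaged 76.4 TPM of BnaA01g16440D and 42.1 TPM of BnaC01g19630D. The part of its RNA in the hEP values was not tested. For photosynthesis, 22 of 42 tested genes were higher and 5 were lower. A photosystem II gene annotated with nonphotochemical quenching, BnaA08g04420D, averaged 66.9 ± 6.52 TPM (SD, n = 3) in the hEP and 13.6 ± 2.62 TPM (SD, n = 4) in the hMCE. Light harvesting did not follow, with 0 higher and 1 lower of 5 tested (limma, 2 higher and 2 lower without the 2 least alike libraries).

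Of 14 tested glycolysis genes, 10 were higher in the hEP and none was lower. The leading pair encodes a fructose-bisphosphate aldolase of the chloroplast stroma. BnaA08g16820D was at 66.9, 73.9, and 76.2 TPM in the hEP and at 4.68 to 7.24 TPM in the hMCE (log2 change 3.41 ± 0.19 SE, adjusted p = 2.6e-06, limma), and BnaC03g60280D at 44.2 to 56.4 TPM against 2.91 to 5.32 TPM (3.35 ± 0.21 SE). Ribosome biogenesis had 8 of 12 tested genes higher and 1 lower, including the plastid ribosomal gene BnaC05g38430D at 15.3 ± 3.27 TPM (SD, n = 3) against 3.20 ± 1.27 TPM (SD, n = 4).

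Single genes of auxin signaling and vascular patterning were among the sharper embryo differences. Auxin directs the outgrowth of cotyledons and the strands that later become xylem and phloem. BnaA09g26170D, a transcription factor of the auxin response, was at 12.7, 15.4, and 13.7 TPM in the hEP and at 0.277 to 0.420 TPM in the hMCE (log2 change 3.44 ± 0.18 SE). A pair annotated with auxin signaling and vascular pattern formation was almost confined to the embryo among these libraries. BnaAnng12580D was at 8.12 to 8.61 TPM in the hEP and under 0.3 TPM in the hMCE (log2 change 3.13), and BnaC04g20730D had no recovered read in the hMCE and was at least 161-fold higher in the hEP. All 4 tested genes of procambium histogenesis, the formation of the vascular precursor tissue, were higher in the hEP, with log2 changes from 1.42 to 1.72. BnaC05g03560D of that list had no recovered read in the hMCE and was at least 73.7-fold higher in the hEP, although its level was only 1.66 to 3.27 TPM. The auxin response list as a whole was less one-sided, with 8 higher and 6 lower of 26 tested. These shares are only somewhat above the 23.3% and 18.6% of all genes, and nothing is read from them. Auxin polar transport had 0 higher and 2 lower of 6 (limma, 1 higher at an unadjusted p under 0.05). On the endosperm side, BnaA05g01170D, an auxin signaling gene, had 24.97 to 35.3 TPM in the hMCE and 3.12 to 13.2 TPM in the hEP (log2 change -2.14).

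Cytokinin signaling had calls in both directions. Of 17 tested genes, 4 were higher in the hEP and 7 lower, beside 23.3% and 18.6% of all genes. The higher share is near that of all genes, and only the lower share stands above it. The 4 higher genes include a pair of phosphorelay response regulators, which are the nuclear output of the pathway. BnaA05g23050D was at 4.05, 8.16, and 4.77 TPM in the hEP and at 0.101 to 0.320 TPM in the hMCE (log2 change 2.38), and BnaC05g36490D at 3.42 to 7.34 TPM against 0.0995 to 0.629 TPM (2.12). Gibberellin synthesis was divided. All 7 tested genes passed, 3 higher and 4 lower in the hEP. The ent-kaurene oxidase gene BnaC07g28980D and the ent-kaurenoate oxidase gene BnaC05g03170D, both early in the pathway, were lower in the hEP, at 2.44 to 4.63 against 9.83 to 10.9 TPM and at 1.496 to 3.42 against 8.38 to 9.52 TPM. A pair annotated with iron binding and the response to red light, BnaA07g07480D and BnaC07g09260D, was higher in the hEP (log2 changes 2.30 and 1.90).

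Of 39 tested cell cycle genes, 20 were higher in the hEP and 2 were lower, and of 14 DNA replication genes, 7 were higher and 1 was lower. The cyclin-dependent kinase gene BnaA07g11980D averaged 11.8 ± 2.47 TPM (SD, n = 3) in the hEP and 1.32 ± 0.489 TPM (SD, n = 4) in the hMCE. A regulator of such kinases, BnaA07g32610D, was at 17.8 to 18.2 TPM in the hEP and at 1.82 to 3.76 TPM in the hMCE. Lists of later steps of division were mixed. Of 32 genes of mitotic nuclear division, 6 were higher and 3 were lower, shares below the 23.3% and 18.6% of all genes. Cell plate genes had 5 higher and 2 lower of 12, and the kinesin complex 5 higher and 1 lower of 15, whereas of 25 phragmoplast genes, 1 was higher and 4 were lower, or 8 lower after quantile normalization. The phragmoplast is the microtubule array that lays down new walls. Its 4 lower genes in the main fit are near the 18.6% of all genes. One mitotic gene was close to absent from the embryo, BnaA05g06480D, at 20.6 to 28.4 TPM in the hMCE and at most 0.422 TPM in the hEP (log2 change -4.57 ± 0.21 SE).

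Several genes of surface lipids were higher in the hEP. Both copies of *CUT1*, which encodes an enzyme that elongates very long fatty acids for wax, passed. BnaC06g25830D was at 3.38, 6.13, and 4.07 TPM in the hEP, and 3 of the 4 hMCE libraries had no recovered read (log2 change 2.33), and BnaA07g24600D was at 2.67 to 3.65 TPM against at most 0.435 TPM (1.75). The *GGL19* pair of GDSL-type lipases was higher as well, at 11.9 against 0.618 TPM for BnaC05g36950D and at 6.11 against 0.696 TPM for BnaA05g36890D. A lipid transport gene with a membrane anchor, BnaC03g50130D, was at 43.2 to 46.2 TPM in the hEP and at 2.10 to 6.95 TPM in the hMCE (log2 change 3.16). The heart stage outer seed coat held more of each, with 30.7 and 149 TPM of *CUT1*, 299 and 346 TPM of *GGL19*, and 100.4 TPM of BnaC03g50130D, and the part of its RNA in these differences was not tested. The copies of *DIM*, which encodes a sterol reductase of brassinosteroid synthesis, differed from each other. BnaA01g25880D was higher in the hEP (54.1 against 8.65 TPM, log2 change 2.53), BnaC01g33070D less so (45.3 against 27.7 TPM, 0.68), and the other pair did not pass (log2 changes -0.30 and -0.09, adjusted p = 0.12 and 0.75, limma). Quantile normalization took the first of these 2, BnaC05g32840D, past the threshold as lower (-0.43).

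The highest log2 changes toward the embryo belonged to genes without an annotation here. BnaC06g34430D was at 80.8, 63.8, and 69.2 TPM in the hEP, with 2 recovered reads in all of the hMCE (log2 change 6.07 ± 0.19 SE). BnaAnng37270D was at 220.1 to 290.4 TPM in the hEP and at 1.58 to 11.7 TPM in the hMCE (5.91 ± 0.49 SE). The heart stage outer seed coat averaged 74.7 TPM of BnaC06g34430D, near the hEP mean of 71.3 TPM, and 1.89 TPM of BnaAnng37270D. The part of outer seed coat RNA in these values was not tested.

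On the endosperm side, the strongest annotated difference was in a pair of genes of the chloroplast rubisco complex, the enzyme that fixes carbon dioxide. BnaA02g12810D was at 395.8, 616, 414, and 410.2 TPM in the hMCE and at 1.54, 1.03, and 2.82 TPM in the hEP (log2 change -7.39 ± 0.25 SE, adjusted p = 3.4e-07, limma). BnaC02g17140D averaged 194 ± 50.3 TPM (SD, n = 4) in the hMCE and 2.53 ± 1.74 TPM (SD, n = 3) in the hEP (-5.88 ± 0.35 SE). The direction is opposite to that of the chlorophyll genes, which were higher in the embryo.

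Nitrogen and sugar metabolism gave the next pairs. Aspartate aminotransferase moves amino groups between aspartate and glutamate. Its copy BnaA09g12700D was at 127, 113, 101, and 103 TPM in the hMCE and at 0.667, 0.636, and 0.819 TPM in the hEP (log2 change -6.03 ± 0.16 SE, adjusted p = 2.0e-07, limma), and BnaC09g13020D averaged 86.8 against 0.870 TPM (-5.57). Fructokinase commits fructose to metabolism. BnaA07g18380D was at 30.5 to 37.9 TPM in the hMCE and at most 0.638 TPM in the hEP (-4.88 ± 0.22 SE), and BnaC06g17380D at 17.4 to 24.7 TPM against at most 0.706 TPM (-4.12 ± 0.23 SE). A proton-pumping pyrophosphatase, which charges the vacuole membrane for uptake, was higher in the hMCE in both copies. BnaA07g35600D was at 37.1 to 44.2 TPM against 0.969 to 1.16 TPM, and BnaC06g40530D at 47.3 to 69.0 TPM against 2.77 to 3.18 TPM (log2 changes -4.35 and -3.80). The vacuole-annotated pair BnaA05g13870D and BnaC06g10780D (-5.85 and -5.34), the peroxidase-type gene BnaC04g34810D (-5.15), and the ribonuclease gene BnaCnng39460D (-4.59) showed similar gaps. The heart stage inner seed coat averaged 210 and 102.5 TPM of the vacuole pair, against 116.8 and 49.5 TPM in the hMCE. For the ribonuclease gene the means were 106 and 26.2 TPM, and for the peroxidase-type gene 7.93 and 57.5 TPM. The part of seed coat RNA in these differences was not tested.

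Transport lists differed by cargo. Of 13 tested amino acid transport genes, 8 were lower in the hEP and 1 was higher, and of 5 sucrose transport genes, 4 were lower and none was higher. Lipid transport had 5 higher and 2 lower of 12, and sugar:proton symporters 1 lower of 6. BnaC08g46530D, annotated with amino acid import and export, was at 7.69 to 15.3 TPM in the hMCE and at most 0.197 TPM in the hEP (log2 change -3.41). BnaC03g23170D and BnaA03g19350D, other amino acid transporters, were at 10.0 to 13.4 and 5.41 to 7.83 TPM in the hMCE and under 1 TPM in the hEP (-3.02 and -2.70). The sucrose transporter pair is also annotated with seed maturation. BnaA09g05190D was at 27.6, 45.7, 26.4, and 25.1 TPM in the hMCE and at 0.767, 2.04, and 0.659 TPM in the hEP (-3.91 ± 0.29 SE), and BnaC09g04760D at 3.95 to 9.76 TPM against at most 1.05 TPM (-2.06 ± 0.32 SE). The seed maturation list, with 5 of 7 tested genes lower, shares 4 of those 5 with sucrose transport and so is not a second finding. The heart stage peripheral endosperm (hPEN, 2 libraries) held 0.509 and 3.81 TPM of the sucrose transporter BnaA09g05190D. It held 10.6 and 23.7 TPM of the amino acid transporter BnaC03g23170D and 6.19 and 11.3 TPM of BnaA03g19350D. The heart stage inner seed coat averaged 73.3 and 12.6 TPM of the sucrose transporter pair, above the hMCE means of 31.2 and 5.96 TPM. BnaC08g46530D averaged 18.9 TPM there and 62.5 TPM in the outer seed coat, against 10.6 TPM in the hMCE. In the inner seed coat, BnaC03g23170D and BnaA03g19350D were at 0.567 and 0.257 TPM. The part of seed coat RNA in these differences was not tested.

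A DNA glycosylase pair annotated with DNA methylation was higher in the hMCE. Enzymes of this type remove methylated bases, and in *Arabidopsis thaliana* one of them acts in the central cell that gives rise to the endosperm. BnaA10g25630D was at 34.4 to 39.9 TPM in the hMCE and at 2.61 to 3.67 TPM in the hEP (log2 change -3.15 ± 0.17 SE), and BnaC09g50670D at 17.4 to 43.8 TPM against 0.952 to 5.36 TPM (-2.91 ± 0.43 SE). They were the only 2 lower members of the 8 tested DNA methylation genes, and 4 others were higher. The highest endosperm log2 changes again belonged to genes without an annotation here. BnaC02g32980D was at 1590 to 2166 TPM in the hMCE and at 1.998 to 6.60 TPM in the hEP, and BnaAnng40430D at 665 to 949 TPM against at most 3.25 TPM (-8.60 and -8.57).

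**Figure D2:**
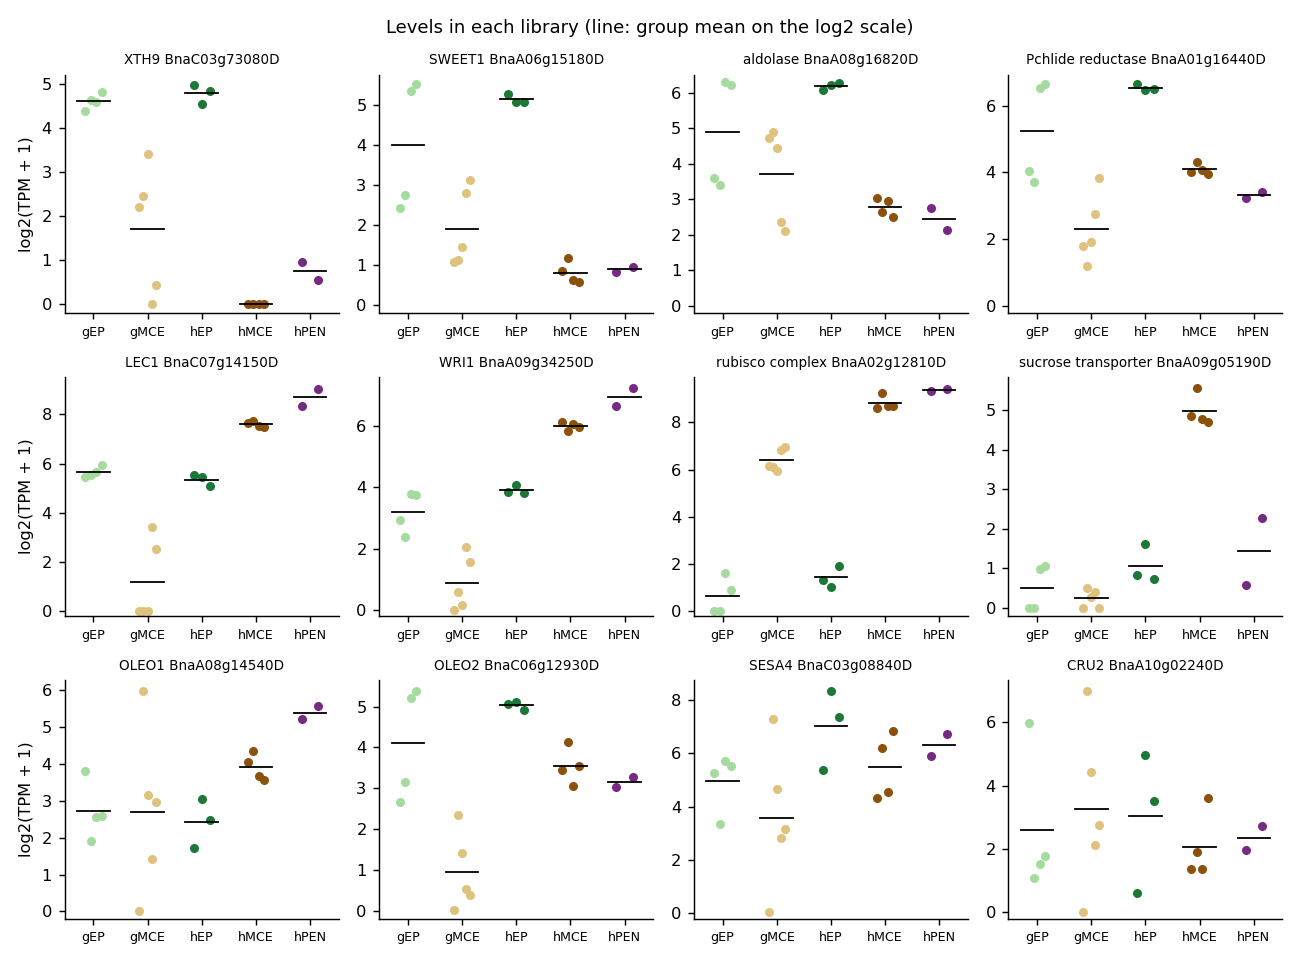
Level of 12 genes in every library of the gEP (4), gMCE (5), hEP (3), hMCE (4), and hPEN (2), as log2(TPM + 1), with points for libraries and lines for the mean of the log2 values. The *XTH9*, *SWEET1*, aldolase, and protochlorophyllide (Pchlide) reductase panels place the hEP above the hMCE without overlap, the second row places it below, and the *SESA4* and *CRU2* panels show hEP and hMCE libraries that overlap.

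*LEC1* and *WRI1* are regulators of seed filling, and both were detected in the 2 subregions but at higher levels in the endosperm. *LEC1* BnaC07g14150D was at 202.7, 212, 187, and 180.4 TPM in the hMCE and at 45.2, 42.3, and 32.7 TPM in the hEP (log2 change -2.27 ± 0.16 SE, adjusted p = 1.2e-05, limma). BnaA07g10770D was at 137 to 179.6 TPM against 30.4 to 45.7 TPM (-2.003 ± 0.19 SE). *WRI1* encodes a transcription factor that turns on fatty acid synthesis. BnaA09g34250D was at 56.8 to 69.3 TPM in the hMCE and at 13.1 to 15.7 TPM in the hEP (-2.10 ± 0.16 SE), and BnaC08g25150D averaged 39.6 ± 8.27 TPM (SD, n = 4) against 13.6 ± 10.5 TPM (SD, n = 3; -1.70 ± 0.40 SE, adjusted p = 0.0092, limma). In that copy hEP replicate 2, at 25.6 TPM, stood nearest to the hMCE.

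Enzymes of oil synthesis downstream were mixed. Of 9 tested genes of triglyceride synthesis, 5 were lower in the hEP and none was higher, and both *WRI1* copies are among the 5. A diacylglycerol acyltransferase gene, BnaA08g03400D, whose product adds the last fatty acid to triglyceride, was at 26.7 to 32.8 TPM in the hMCE and at 1.99, 8.10, and 2.44 TPM in the hEP (log2 change -2.73 ± 0.35 SE). Of 12 tested genes of fatty acid biosynthesis, 5 were higher and 1 was lower. The copies of *FAB2*, a stearoyl desaturase, stood at 68.2 against 74.6 TPM and 61.2 against 52.4 TPM, and neither passed (log2 changes -0.21 and 0.18, adjusted p = 0.56 and 0.55, limma; the second copy passed with library weights, at 0.47).

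Oleosins coat oil bodies, and their summed level was nearly equal in both subregions while the family members went apart. The 11 listed genes summed to 65.5, 91.8, and 72.0 TPM in the hEP and to 67.1, 77.4, 59.9, and 66.5 TPM in the hMCE, ranges that overlap, and to 3254 TPM in the mature green cotyledons. *OLEO2* was higher in the hEP in all 3 copies. BnaC06g12930D was at 32.4, 33.4, and 29.4 TPM in the hEP and at 7.37 to 16.5 TPM in the hMCE (log2 change 1.48 ± 0.24 SE), and BnaA07g14960D at 17.1 to 18.0 TPM against 6.91 to 8.47 TPM (1.10 ± 0.16 SE). The third copy, BnaC04g32530D, was at 1.31 to 2.41 TPM against at most 1.17 TPM (0.96), and its adjusted p was 0.10 without hEP replicate 3 and 0.073 to 0.075 without hMCE replicate 1, 3, or 4 (limma). Both *OLEO4* copies were higher too, at means of 1.66 and 3.98 TPM against 0.258 and 0.485 TPM. *OLEO1* went the other way. Of its 6 copies, BnaA08g14540D, BnaC08g11970D, and BnaC01g17050D were lower in the hEP (log2 changes -1.49, -1.53, and -1.11), as at 2.32, 7.30, and 4.59 TPM against 10.8 to 19.5 TPM for BnaA08g14540D. BnaC07g39370D had a log2 change of -1.74 but did not pass (adjusted p = 0.052, limma), and hEP replicate 2 held 12.1 TPM beside 0.293 and 3.56 TPM in the others. Without that library it passed (-2.55, adjusted p = 0.0044, limma). The other 2 copies had log2 changes of -0.27 and 0.00.

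Storage protein genes had large spreads between libraries of a subregion. The *SESA* genes encode 2S albumins and the *CRU* genes encode cruciferins, both of which accumulate late in seed filling. The 18 listed genes summed to 104, 1101, and 487 TPM in the hEP and to 49.8, 152, 63.6, and 401 TPM in the hMCE, with hEP replicate 2 and hMCE replicate 4 highest, against 41,453 TPM in the mature green cotyledons. *SESA4* BnaC03g08840D, the most abundant copy in the hEP, was at 41.0, 319.9, and 166 TPM in the hEP and at 19.1, 72.2, 22.2, and 115 TPM in the hMCE, so the groups overlap (log2 change 1.55 ± 0.78 SE, adjusted p = 0.14, limma). It passed without hEP replicate 1 (2.38, adjusted p = 0.037, limma). In all, 4 of 17 tested genes were higher and none was lower, beside 23.3% higher and 18.6% lower of all genes. The higher share is thus near that of all genes. The 4 genes are *SESA1* BnaC01g19300D (14.6, 38.7, and 23.6 TPM against 0.438 to 10.1 TPM), *SESA4* BnaC08g12450D (2.29 to 9.94 TPM, no recovered read in the hMCE, at least 18.5-fold higher), and both genes listed as *CRB*. The *SESA1* call was lost without hEP replicate 2 (log2 change 2.21, adjusted p = 0.058, limma). The *CRB* genes, at 5.81 and 6.68 TPM in the hEP against 1.67 and 2.04 TPM, were at 0.133 and 0.0650 TPM in the mature green cotyledons, unlike the *SESA* and *CRU* genes. Whether the *CRB* genes encode storage proteins was not tested. Without them, the only higher calls are *SESA1* BnaC01g19300D and *SESA4* BnaC08g12450D. Without hEP replicate 1, the library lowest in these genes, 8 *SESA* and *CRU* genes that had not passed did so as higher, *SESA4* BnaC03g08840D among them, as well as *CRU2* BnaA10g02240D (2.19) and *SESA1* BnaA01g17200D (2.86). Without hEP replicate 2 the *CRU2* copy had a log2 change of -0.0037. Whether RNA carried over from later seeds or other captures has a part in these values was not tested.

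Genes annotated with nutrient reservoir activity were a different set. Of 7 tested, 2 were higher and 4 lower. BnaA07g14060D was at 6.15 to 6.90 TPM in the hMCE and had no recovered read in the hEP, so it was at least 33.7-fold lower in the hEP. The pair BnaA01g00810D and BnaC01g01820D, which also carries lipase annotations, had log2 changes of -3.01 and -2.45.

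**Figure D3:**
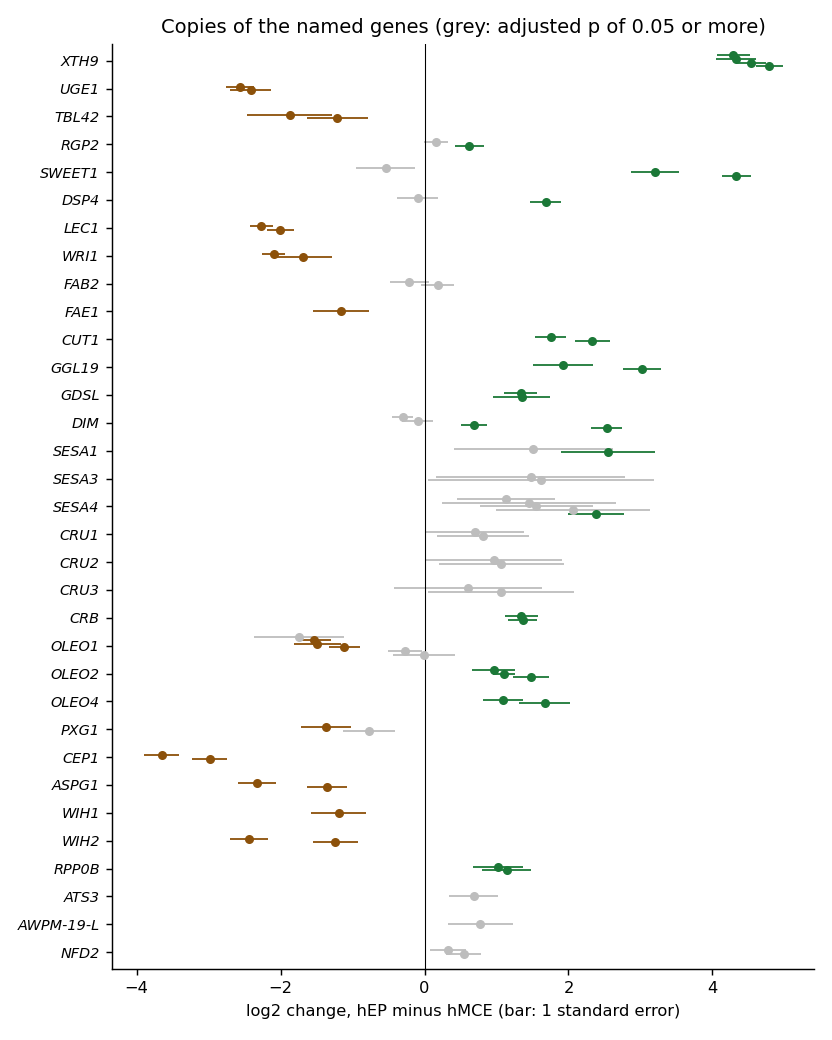
log2 change (hEP minus hMCE) and its standard error for each tested copy of the named genes, 1 row per gene name, green for higher and brown for lower at an adjusted p under 0.05 and grey otherwise. *XTH9*, *OLEO2*, *OLEO4*, and *CUT1* lie to the right in every copy, *LEC1*, *WRI1*, *CEP1*, and *UGE1* to the left, and the storage protein copies have wide bars that mostly reach to or near 0.

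Several genes known from maternal tissue were higher in the endosperm than in the embryo, while others went the other way. *XTH9*, *CUT1*, and *SWEET1* BnaA06g15180D and BnaC05g16660D were higher in the hEP, as described above. So was *DSP4* BnaA09g32630D (2.34 against 0.0331 TPM). *CEP1* encodes a cysteine protease tied to programmed cell death in *A. thaliana*. BnaA03g23380D was at 12.7 to 18.3 TPM in the hMCE and at most 0.822 TPM in the hEP (log2 change -3.65 ± 0.24 SE), and BnaC03g27700D at 7.75 to 12.03 TPM against at most 0.659 TPM (-2.99 ± 0.24 SE). The heart stage inner seed coat (hISC) held 3448 and 1723 TPM of these copies, of which the hMCE levels are 0.471% and 0.529%. The *UGE1* pair, which interconverts UDP-glucose and UDP-galactose, had log2 changes of -2.56 and -2.42, and its hMCE levels were 2.59% and 2.41% of those in the hISC. The *ASPG1* pair of aspartic proteases (-2.33 and -1.36) reached 16.1% and 22.0% of the hISC. Of 748 genes with at least 100 TPM in the hISC, 207 were at most 1 TPM in the hEP, 102 were at most 1 TPM in the hMCE, and 85 in both. The part of seed coat RNA in these differences was not tested.

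*WIH2*, a small cysteine-rich protein gene of the chalazal list, was lower in the hEP in both copies (log2 changes -2.44 and -1.24), at 37.2 to 75.7 TPM in the hMCE against 6.44 to 10.0 TPM for BnaA04g23910D. The hISC averaged 66.94 TPM of BnaA04g23910D and 156.7 TPM of BnaC04g47670D, above the hMCE means of 50.18 and 47.35 TPM. How much seed coat RNA adds to these *WIH2* values was not tested. *TBL42*, listed with the syncytial endosperm, had no recovered read in the hEP. BnaC06g20340D was at 3.75, 4.89, and 5.48 TPM in 3 of the hMCE libraries and without reads in hMCE replicate 2, and was at least 20.4-fold lower in the hEP. The call was lost when any single library other than hMCE replicate 2 was left out (adjusted p = 0.077 to 0.081, limma). Other markers of the syncytial endosperm, the *GH9B9* pair, were at most 0.463 TPM in every hEP and hMCE library and at 3.43 to 11.1 TPM in the hPEN. Of the 89 genes that the authors listed by name, 73 were tested, 27 were higher and 18 were lower, beside 23.3% and 18.6% of all genes.

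Gene lists by Gene Ontology term gave the overall picture by function. They hold the genes that the authors' tables give for a term, taken from gene pair clusters that were chosen in these libraries, so they are not independent evidence. Beside 23.3% and 18.6% of all genes, embryo shares were high for chlorophyll synthesis (15 of 21), glycolysis (10 of 14), ribosome biogenesis (8 of 12), xylem and phloem patterning (6 higher and 1 lower of 9), photosynthesis (22 of 42), and the cell cycle (20 of 39). Endosperm shares were high for seed maturation (5 of 7), amino acid transport (8 of 13), triglyceride synthesis (5 of 9), and cysteine peptidases (4 of 8, with none higher). Some lists stood near the background. Embryo development ending in seed dormancy had 28 higher and 21 lower of 111 tested, and the response to abscisic acid 17 higher and 10 lower of 65. Transcription factors, with 60 higher and 32 lower of 168, were above the background on the embryo side and near it on the other. The lists described here with no call in a direction also had no gene there at an unadjusted p under 0.05 (limma), except light harvesting and auxin polar transport (1 higher each), sugar:proton symporters (1 higher), and cysteine peptidases (2 higher). No list was tested as a set.

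**Figure D4:**
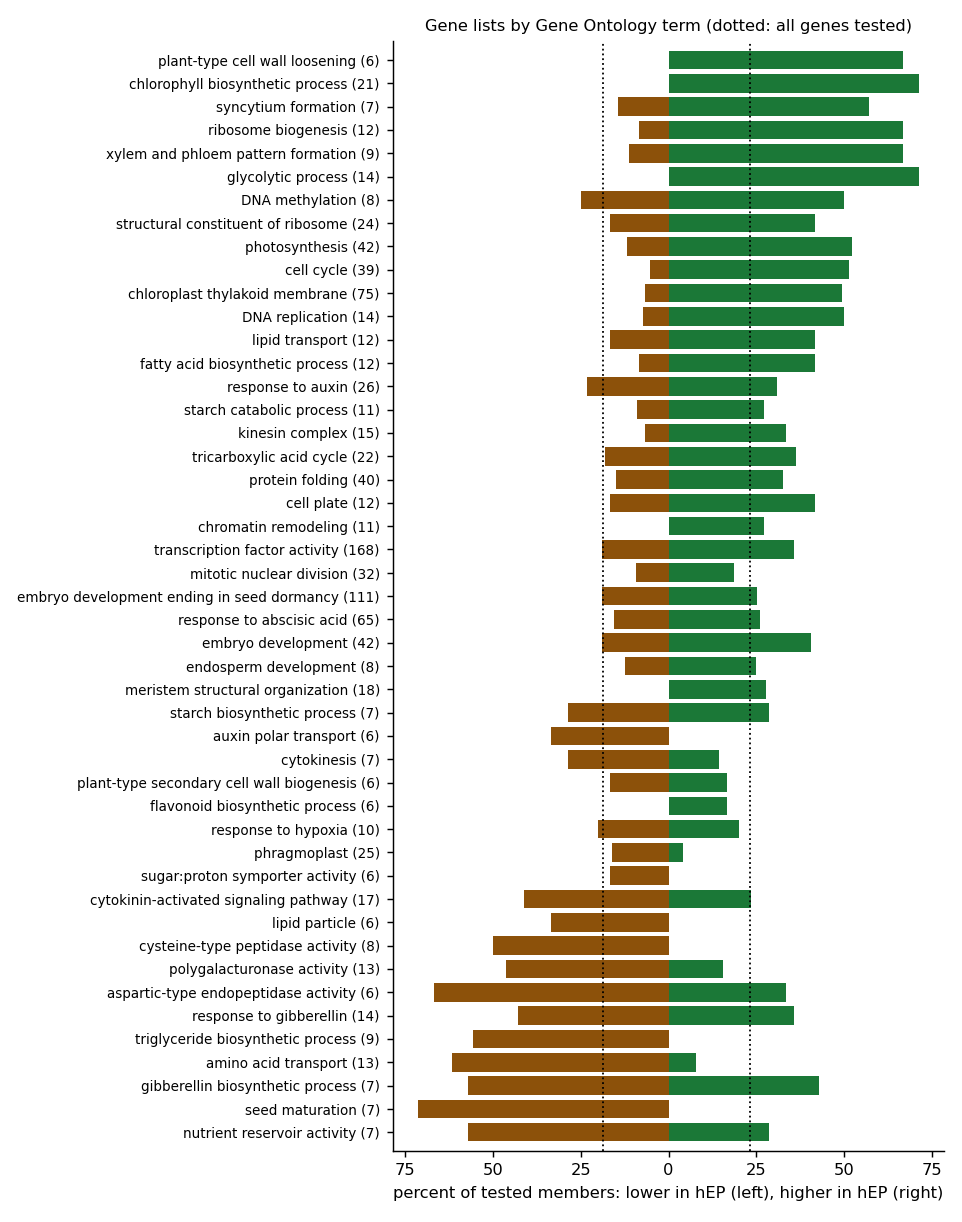
Percent of the tested members of each Gene Ontology list that were lower (brown, left) or higher (green, right) in the hEP at an adjusted p under 0.05, for lists with at least 6 tested members (number in brackets), ordered by median log2 change. Dotted lines mark 23.3% and 18.6%, the shares among all genes tested, which chlorophyll synthesis and glycolysis exceed on the right and seed maturation and amino acid transport on the left.

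The same subregions of the globular stage (gEP, 4 libraries, and gMCE, 5 libraries) allowed a test of which differences were particular to the heart stage. The contrast was the hEP minus hMCE difference less the gEP minus gMCE difference. Among the globular libraries, gMCE replicates 1 to 3 stood apart from replicates 4 and 5. In the former the 50 most abundant genes held 71.9% to 75.3% of the TPM and in the latter 35.8% to 37.0%. The gEP replicates 1 and 2 were also shallow, at 0.185 to 0.197 times the depth of hEP replicate 1, against 2.14 to 2.54 times for replicates 3 and 4. On the same scale gMCE replicate 1 was at 0.194 times, and gMCE replicates 2 and 4 were at 0.362 and 0.465 times. Between the globular subregions, 20,507 genes (41.5%) were higher and 4,181 (8.46%) lower in the gEP of 49,422 tested.

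Of the same 49,422 genes, the difference was higher at the heart stage for 726 (1.47%) and lower for 6,906 (14%). The median shift over all genes was -0.66 on the log2 scale, so that most genes were moved down together. After quantile normalization the median was -0.04, and 1,775 genes (3.59%) were higher and 3,045 (6.16%) were lower. The counts rested on single libraries as well. Without hEP replicate 1 they were 386 and 4,596, without hEP replicate 3 they were 406 and 4,013, and 466 were higher without hMCE replicate 3. Leaving out gMCE replicate 4 or 5 gave 1,183 or 1,197 higher, and leaving out both gave 3,750 higher and 17,721 lower.

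*LEC1* had the strongest turn among the genes named here that hold a name. At the globular stage the gEP was at 43.0 to 60.5 TPM of BnaC07g14150D, much as in the hEP. In the gMCE, replicates 4 and 5 were at 9.75 and 4.80 TPM, and the other 3 libraries were under 0.01 TPM, which is less than 1 read. In those 3, 1 read on a gene of median length stood for 0.305 to 1.17 TPM. The log2 change was thus 4.45 ± 0.59 SE toward the embryo at the globular stage and -2.27 at the heart stage, a difference of -6.72 ± 0.90 SE. BnaA07g10770D turned likewise, from 4.78 to -2.003 (difference of -6.78 ± 0.73 SE). Both passed with quantile normalization (-6.82 and -6.76) and without gMCE replicates 4 and 5 (-7.91 and -7.67). *WRI1* followed, with globular log2 changes of 2.33 and 2.13 and differences of -4.43 and -3.82. The *FAB2* copies were higher in the gEP (2.37 and 2.82) and without a called difference at the heart stage, and this stage difference passed for both (-2.58 and -2.64).

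Genes of metabolism and transport also passed the stage test. Aspartate aminotransferase BnaC09g13020D was at most 2.41 TPM in any globular library and at 79.8 to 104 TPM in the hMCE, a stage difference of -5.59 ± 0.55 SE. The sucrose transporter BnaA09g05190D was at most 1.08 TPM in the globular libraries (-4.18 ± 0.47 SE). The diacylglycerol acyltransferase gene BnaA08g03400D was at 6.74 to 12.2 TPM in the gEP and at most 5.23 TPM in the gMCE at the globular stage, the reverse of its order at the heart stage (-4.28 ± 0.71 SE). The amino acid transporter BnaA03g19350D (-2.67), the *WIH2* pair (-2.92 and -3.11), and the DNA glycosylase BnaA10g25630D (-2.50) passed as well.

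Some genes had log2 changes of the same sign at both stages. The rubisco complex pair already had globular log2 changes of -5.76 and -5.55, with 60.0 to 123 TPM of BnaA02g12810D in the gMCE. The *XTH9* copies had globular log2 changes of 1.80 to 4.00 beside 4.29 to 4.79 at the heart stage. The stage difference of BnaA09g01390D was 0.33, and those of the other 3 copies were 1.88 to 2.49 (adjusted p = 0.073 to 0.20, limma). Without gMCE replicates 4 and 5 these 3 passed as higher at the heart stage (2.87 to 3.67, adjusted p = 8.6e-06 to 6.5e-05, limma). Protochlorophyllide reductase BnaA01g16440D had 2.92 and 2.44, though the gEP libraries split into 15.4 and 12.04 TPM in the shallow pair and 90.9 and 99.8 TPM in the others. Among 130 genes tested for the stage difference by name, 37 passed, all of them lower at the heart stage, beside 14% lower and 1.47% higher of all genes. Of the 37, 30 passed in the same direction after quantile normalization. Many of the 130 were chosen by their heart stage difference, which is part of this contrast, so nothing is read from the count or its direction.

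**Figure D5:**
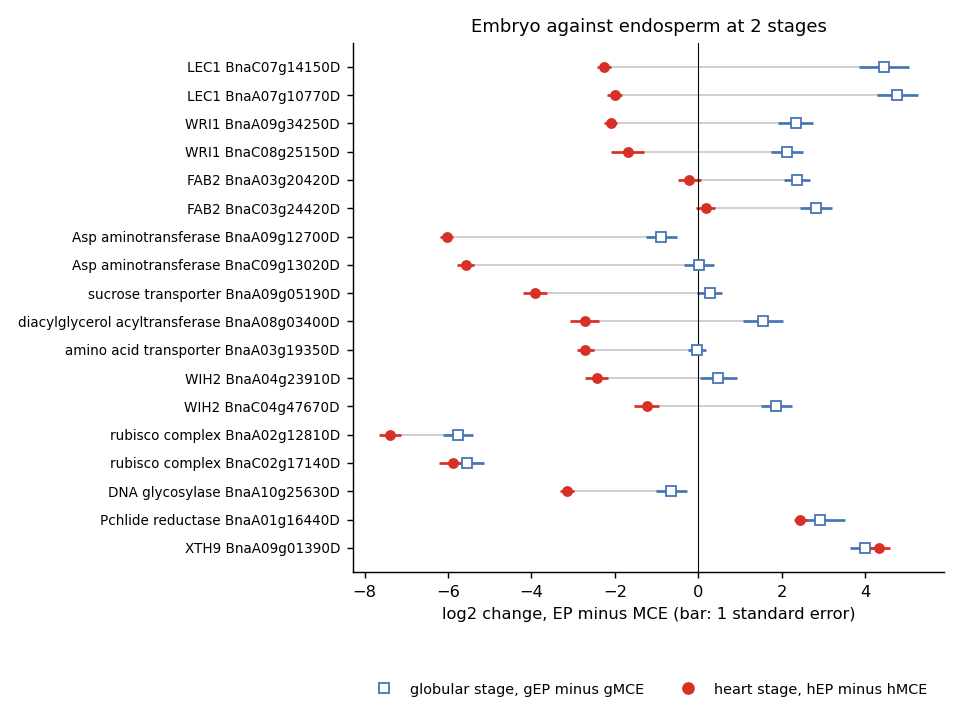
log2 change of the EP against the MCE with its standard error for 18 genes at the globular stage (open blue squares) and the heart stage (red circles). *LEC1* and *WRI1* cross from right to left, aspartate aminotransferase and the sucrose transporter leave 0 for the left, and the rubisco complex pair, protochlorophyllide reductase, and *XTH9* BnaA09g01390D keep their side.

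The hPEN lines the seed coat at the same stage, and its values are set beside those of the hMCE. Both comparisons use the same hEP libraries. Against the hPEN, 6,001 genes (14%) were higher and 12,871 (30%) were lower in the hEP of 42,835 tested. Of the embryo genes, *SWEET1* BnaA06g15180D was at 0.785 and 0.931 TPM, protochlorophyllide reductase BnaA01g16440D at 8.40 and 9.65 TPM, and the aldolase gene BnaA08g16820D at 5.75 and 3.36 TPM in the hPEN, each far below the hEP. Of the endosperm genes, *LEC1* BnaC07g14150D reached 329 and 531 TPM, *WRI1* BnaA09g34250D 100.2 and 149 TPM, and the rubisco complex gene BnaA02g12810D 639 and 693 TPM, all above the hMCE means. Fructokinase BnaA07g18380D was at 20.2 and 20.4 TPM. The diacylglycerol acyltransferase gene BnaA08g03400D, by contrast, was at 3.75 and 4.31 TPM in the hPEN, near the hEP level, with no called difference between hEP and hPEN (log2 change -0.14 ± 0.40 SE, adjusted p = 0.79, limma).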

How the data were processed

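The deposited values were TPM. The authors cleaned their reads (fastp), placed them on the Darmor-bzh genome (HISAT2), counted those that mapped uniquely (featureCounts), and divided by gene length and library total. Reads of near-identical copies that map to more than 1 place were thus not counted, and copies that share sequence may be understated. The table holds 101,040 genes and no 0, because 0.01 reads were added to each value. Reads were recovered from the steps between low values for 84,078 genes (83.2%), with 97.2% of low values whole within 0.1 reads, and served only for depths and for groups at 0, whose floor is 3 reads over the group. The floor covers counting error only. The table gives TPM and not counts, so a linear model was used in place of a count test.

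Groups were fitted with limma (version 3.58.1 in R 4.3.3) on log2(TPM + 1), with the variance following the level. Unless stated, a gene was kept where any group in the fit averaged 1 TPM or more. Fold changes are on the log2(TPM + 1) scale, which understates those of low genes. The fit of the hEP against the hPEN also held the hMCE libraries, and its filter used the hEP and hPEN only. The fit over 74 libraries was filtered on the hEP and hMCE. p-values were two-sided, with Benjamini-Hochberg adjustment over all genes tested and a limit of 0.05. Scripts were tested on simulated data. p-values measure the spread between pools of sections. Alternatives changed the pseudocount (0.1 and 5 TPM), the filter (none and 5 TPM), the scaling, the variance model, the samples in the fit, and the replicate block, and left out each library in turn. The fits without hEP and hMCE replicates 2 and without gMCE replicates 4 and 5 were added after seeing the data.

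Named genes were those the authors list by symbol, both *LEC1* copies, the 10 annotated and 2 unannotated genes of largest change in each direction (groups apart, at least 10 TPM), up to 4 members of each list by adjusted p in each direction, and the 2 most abundant genes. The members and lists were chosen with earlier results of these data known. Gene Ontology terms come from the authors' tables, of which only a part was to hand. Sequences were not used here. The authors' own comparisons were not used.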

Additional observations from a re-analysis of the deposited data

Results flagged for a closer look

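Some libraries lay far from the others of their subregion. Such a gap is found by chance in about 1 of 20 groups, and 130 genes were examined. In hMCE replicate 2, *TBL42* BnaC06g20340D was at 0.00111 TPM, which is the value of 0 reads, BnaAnng12580D at 0.284 TPM, BnaC06g34430D at 0.316 TPM, rubisco complex BnaA02g12810D at 616 TPM, and the sucrose transporter BnaA09g05190D at 45.7 TPM. In hMCE replicate 3, the deepest library, *DSP4* BnaA09g32630D was at 0.121 TPM, *AWPM-19-L* BnaA10g02700D at 0.163 TPM, and *CUT1* BnaC06g25830D at 0.332 TPM, where the other hMCE libraries had no recovered read. In hMCE replicate 4, *NFD2* BnaC05g21090D was at 3.56 TPM, *CRU1* BnaC07g48660D at 3.14 TPM, BnaA09g26170D at 0.277 TPM, and BnaA05g01170D at 24.97 TPM. BnaC09g13020D was at 104 TPM in hMCE replicate 1 and at 2.41 TPM in gMCE replicate 4, and BnaA10g25630D at 17.8 TPM in gMCE replicate 5. BnaA08g03400D was at 0.0114 TPM in gMCE replicate 1, where 1 read on a gene of median length stood for 1.17 TPM.

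The difference between EP and MCE itself differed between the heart and globular stages for 37 of the 130 genes by the limma contrast (Benjamini-Hochberg adjusted p under 0.05), all toward the endosperm at the heart stage on the log2 scale. The median shift of all genes was -0.66, and 30 of the 37 passed in the same direction after quantile normalization. Among named regulators and lipid genes the difference was -6.72 and -6.78 for *LEC1* (BnaC07g14150D, BnaA07g10770D), -4.43 and -3.82 for *WRI1* (BnaA09g34250D, BnaC08g25150D), -2.58 and -2.64 for *FAB2* (BnaA03g20420D, BnaC03g24420D), -4.28 for the diacylglycerol acyltransferase BnaA08g03400D, and -3.05 for *DIM* BnaC05g32840D. For metabolism and transport it was -5.15 and -5.59 for aspartate aminotransferase (BnaA09g12700D, BnaC09g13020D), -3.62 for fructokinase BnaC06g17380D, -2.67 and -3.53 for the pyrophosphatase (BnaA07g35600D, BnaC06g40530D), -4.18 and -1.83 for the sucrose transporter (BnaA09g05190D, BnaC09g04760D), and -2.67 and -1.46 for amino acid transporters (BnaA03g19350D, BnaC03g23170D). For genes of maternal lists it was -3.56 and -2.92 for *CEP1* (BnaA03g23380D, BnaC03g27700D), -2.92 and -3.11 for *WIH2* (BnaA04g23910D, BnaC04g47670D), and -3.04 for *WIH1* BnaA06g24930D. For reservoir genes it was -2.92 (BnaA07g14060D), -3.37 (BnaA01g00810D), and -2.45 (BnaC01g01820D). For hormone and cell cycle genes it was -4.44 (BnaA05g01170D, auxin), -3.28, -2.25, and -1.14 (BnaC07g28980D, BnaC05g03170D, and BnaC07g09260D, gibberellin), and -1.78 (BnaA07g32610D, kinase regulator). For the DNA glycosylases it was -2.50 and -3.21 (BnaA10g25630D, BnaC09g50670D). The others were -4.84 and -2.09 for the vacuole pair (BnaA05g13870D, BnaC06g10780D), -3.21 for BnaC04g34810D, -3.13 for the ribonuclease BnaCnng39460D, and -4.40 for BnaAnng40430D. Calls that quantile normalization took away include *WIH1* (adjusted p = 0.094), *DIM* BnaC05g32840D (0.16), and the kinase regulator BnaA07g32610D (0.12).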

How the results depend on the processing

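Of 130 genes examined by name, the 100 called kept their direction under every alternative that could be computed for the heart stage comparison. Of the 30 not called, 10 changed sign under at least 1 alternative, never with an adjusted p under 0.05. Of the 100, 77 were called under each of them and 23 were lost under at least 1. The least stable were *RPP0B* BnaCnng24330D (lost under 12), *RGP2* BnaA10g18590D and *TBL42* BnaAnng29680D (10 each), and *FAE1* BnaA08g11130D (8), and the cause was not tested. The counts of 9,422 higher and 7,518 lower became 4,865 and 3,852 with a minimum mean of 5 TPM, which leaves 14,930 genes to test, and stayed within 1.5 times under the other alternatives, from 7,254 (replicate block) to 12,681 (library weights) higher and from 5,921 (fit over 74 libraries) to 9,158 (library weights) lower. Leaving out each library in turn gave 7,362 to 10,129 higher and 5,988 to 7,634 lower, and leaving out hEP and hMCE replicates 2 gave 10,874 and 8,430.

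The stage difference depended more on the processing. The counts of 726 higher and 6,906 lower became 1,775 and 3,045 with quantile normalization, 352 and 4,212 with the replicate block, 386 to 1,197 and 4,013 to 9,415 when each library was left out, and 3,750 and 17,721 without gMCE replicates 4 and 5, and the cause was not tested. Replicate numbers did not pair the libraries by the measure used, since deviations of same-numbered hEP and hMCE libraries correlated at 0.135, 0.056, and 0.059, although each hEP library correlated best with its own number. The replicate block made 5 calls of named genes miss the threshold and let 6 others pass, 3 of them *SESA4* (BnaC03g08840D, BnaC01g19320D, and BnaA03g06940D), 1 *ATS3*, and the other 2 the most abundant genes, BnaC09g16500D and BnaC09g30110D. Both of those also passed as lower with library weights (-0.60 and -0.65), and BnaC09g16500D with a pseudocount of 5 TPM (-0.51). Quantile normalization gives equal values to genes of equal rank. These genes led both subregions, so it could not show a difference for them. Low depth limits genes near 1 TPM in hEP replicate 2, in gEP replicates 1 and 2, and in gMCE replicates 1, 2, and 4.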
